A study of Bos taurus with 9 samples.

Results

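The regions described here were RNA polymerase II (RNA pol II) peaks on bovine chromosomes 1 to 29 that shared at least 1 bp with a peak of trimethylated lysine 9 of histone H3 (H3K9me3), whichever condition that H3K9me3 peak came from. In the control list 133 of 673 autosomal RNA pol II peaks met this rule, and in the butyrate list 172 of 1242 did. These 305 regions were drawn from 2355 RNA pol II peaks in both lists on every chromosome, and from 86291 peaks over all antibodies. The share of autosomal RNA pol II peaks that qualified was 19.8% in control and 13.8% after butyrate. The regions were selected on the measured position of H3K9me3 peaks, so the presence of that mark under these peaks and the condition it came from are given as description.

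Chromatin immunoprecipitation sequencing was carried out on rumen, the first stomach chamber of cattle, from animals labelled as Hostein (Holstein), with tissue taken before treatment (control) and 24 h into butyrate. Control and butyrate each had 1 library per antibody, for H3K9me3, RNA pol II, and acetylated lysine 9 and lysine 27 of histone H3 (H3K9ac and H3K27ac), and 1 input library served as the background of every peak call. The labels do not say how many animals gave the tissue. Both RNA pol II libraries were sequenced on lane 3, whereas H3K9me3 was on lane 3 in control and lane 4 after butyrate, and both acetylation marks were on lane 1 in control and lane 3 after butyrate, so that lane and condition cannot be told apart for the histone marks. With 1 library per group there was no replicate check and no test between conditions. Intervals below are Wilson 95% intervals that cover counting error only, and neighbouring peaks are not independent of each other. Peak lists hold positions without heights or read numbers, so the reads behind a peak are unknown, and its width was the one measure of its size. The study reports a mapping summary of its data sets, which was not used here. All positions are in the assembly UMD3.1.1, and whether a peak lies in a gene was not analysed here.

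H3K9me3 is the hallmark of constitutive heterochromatin and covers repeats, transposable elements and silenced gene clusters, where it is bound by heterochromatin protein HP1. RNA pol II transcribes protein-coding genes and accumulates at active promoters and enhancers, where histones carry H3K27ac and H3K9ac. Lysine 9 of one histone tail can be acetylated or trimethylated, not both at once, whereas a peak sums over many nucleosomes, alleles and cells. Butyrate, a short-chain fatty acid made by rumen microbes, blocks the deacetylases that strip acetyl groups from histones.

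The RNA pol II peaks with H3K9me3 were wide peaks of their lists. Their median width was 269 bp in control, with quartiles of 214 and 342 bp, and 262 bp after butyrate, with quartiles of 216 and 333 bp. Autosomal RNA pol II peaks without H3K9me3 had medians of 212 and 208 bp, close to the narrowest width of 200 bp. The share of RNA pol II peaks that overlapped H3K9me3 rose with width in both lists. In control it was 8.8% of the peaks of exactly 200 bp (19 of 216), 17.8% from 201 to 300 bp (63 of 354), 46.8% from 301 to 500 bp (44 of 94) and 77.8% above 500 bp (7 of 9). After butyrate the same classes gave 4.19% (20 of 477), 14.4% (88 of 613), 38.6% (54 of 140) and 83.3% (10 of 12). A wider peak has more room to meet another peak by 1 bp, and how much of this gradient comes from that was not tested.

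Most of these overlaps were deep. The median stretch shared with H3K9me3 was 227 bp in control and 225 bp after butyrate, and the centres of the overlapping peaks lay a median of 48 and 46.8 bp apart. The whole RNA pol II peak was under H3K9me3 in 57 control peaks (42.9%) and in 71 butyrate peaks (41.3%). At least 50% of the shorter peak was shared in 95.5% and 89.5%. The H3K9me3 peaks involved had median widths of 314 and 306 bp, so the called peaks of both were narrow and lay on each other. How far the H3K9me3 signal itself extended cannot be read from called peaks. At the edge of the rule, the control peak chr12:88252187-88252386 shared 1 bp and chr20:41453485-41453697 shared 44 bp with H3K9me3, and the butyrate peaks chr24:12816448-12816647 and chr27:5504554-5504818 shared 9 and 17 bp. The closest control peaks left out were chr6:5777664-5777916 and chr11:4501448-4501661, at 9 and 28 bp from H3K9me3, and the closest butyrate peaks left out were chr8:75852265-75852540 and chr14:32266524-32266723, at 82 and 90 bp. Few peaks sat at this edge, since 10 of the 540 control peaks (1.85%) and 10 of the 1070 butyrate peaks (0.935%) outside the rule lay within 500 bp of H3K9me3.

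RNA pol II peaks with H3K9me3 differed less in number between conditions than other RNA pol II peaks. Their number was 1.29 times that in control (1.03 to 1.62, from counting error in both numbers), a log2 ratio of 0.37 (0.05 to 0.70). In 4 of 7 alternative settings this interval held 0, with log2 ratios of 0.25 to 0.33, so more peaks after butyrate were not clear of counting error there. Autosomal RNA pol II peaks without H3K9me3 numbered 540 in control and 1070 after butyrate, a ratio of 1.98 (1.79 to 2.2) and a log2 ratio of 0.99. RNA pol II peaks with H3K9me3 on the X chromosome, 121 in control and 161 after butyrate, had a ratio of 1.33 (1.05 to 1.68). The intervals of the autosomal peaks with and without H3K9me3 did not overlap, but 1 library on each side leaves library and condition inseparable.

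RNA pol II returned at the same position in the other condition more often where H3K9me3 was present. Of the 133 control peaks, 59 overlapped a butyrate RNA pol II peak (44.4%, 36.2 to 52.8), beside a background of 15.3% over all autosomal control RNA pol II peaks. Of the 172 butyrate peaks, 62 overlapped a control RNA pol II peak (36%, 29.2 to 43.5), beside a background of 8.29%. Without H3K9me3 the shares were 8.15% in control (44 of 540, 6.13 to 10.8) and 3.83% after butyrate (41 of 1070, 2.84 to 5.16). Peaks with H3K9me3 on X recurred about as often as the autosomal ones, at 48.8% (40 to 57.6) and 35.4% (28.4 to 43.1). The plot of shares sets these 3 classes side by side.

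**Figure D1:**
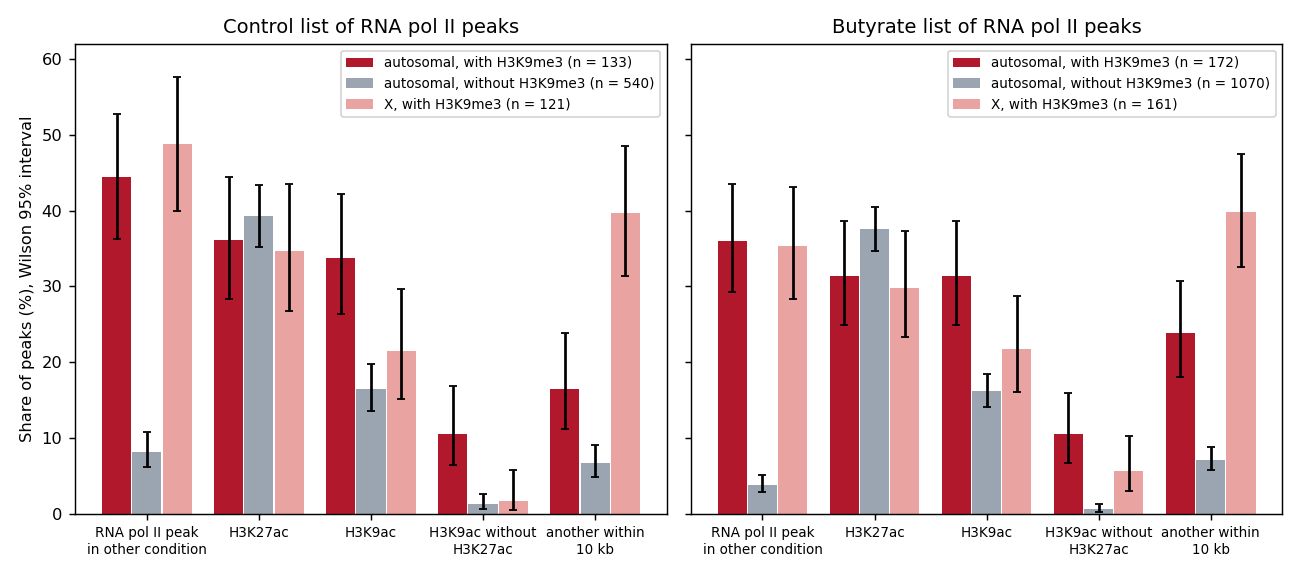
Share of RNA pol II peaks (y axis, percent, bars with Wilson 95% intervals) that have an RNA pol II peak in the other condition, overlap H3K27ac, H3K9ac or H3K9ac without H3K27ac, or have another peak of their own class within 10 kb (x axis), for the control list (left) and the butyrate list (right). Autosomal peaks with H3K9me3 (dark red) stand above those without (grey) for recurrence, 44.4% against 8.15% in control, and for H3K9ac, 33.8% against 16.5%, while the H3K27ac intervals overlap. X peaks with H3K9me3 are in pale red.

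The difference was also present within classes of peak width. From 201 to 300 bp, 41.3% of the control peaks with H3K9me3 recurred (26 of 63) against 10.3% of those without (30 of 291), and after butyrate 22.7% (20 of 88) against 3.24% (17 of 525). From 301 to 500 bp the shares were 54.5% (24 of 44) against 16% (8 of 50) in control and 57.4% (31 of 54) against 15.1% (13 of 86) after butyrate. At the narrowest width the counts were small, with 3 of 19 against 5 of 197 in control and 5 of 20 against 11 of 457 after butyrate. Recurrence therefore went with both width and H3K9me3. All lists were called against the same input library, and its part in a position being called repeatedly was not tested.

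**Figure D2:**
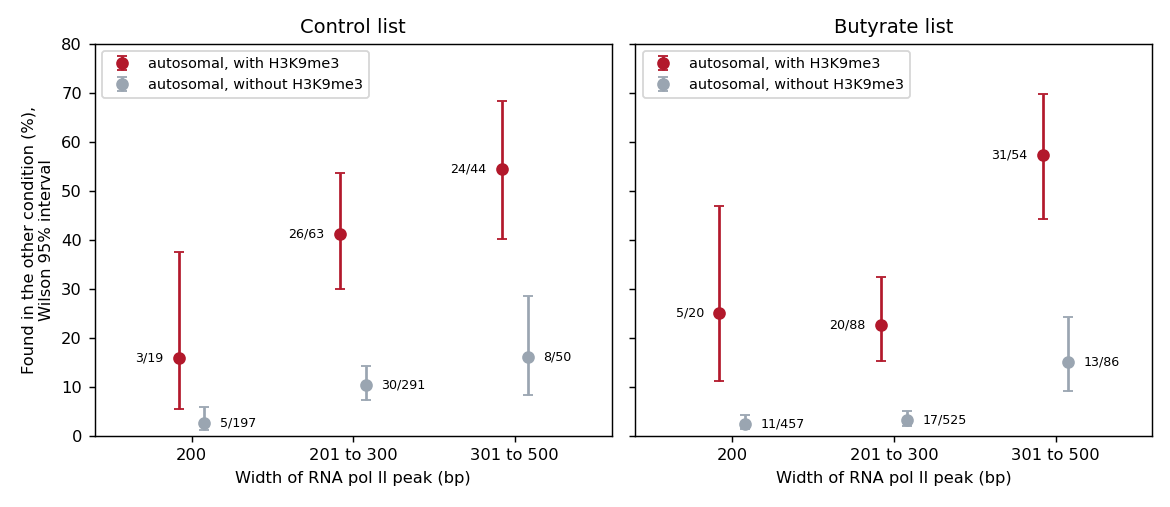
Share of autosomal RNA pol II peaks found again in the other condition (y axis, percent, points with Wilson 95% intervals and counts) by peak width (x axis, bp), for the control list (left) and the butyrate list (right). Peaks with H3K9me3 (dark red) lie above peaks without (grey) in each of the 3 width classes of both lists, for example 54.5% against 16% from 301 to 500 bp in control.

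Which H3K9me3 list held the overlapping peak also differed between recurring and single peaks. By construction each region had H3K9me3 in at least 1 condition: 52.6% of the control and 48.8% of the butyrate RNA pol II peaks had it in both. RNA pol II recurred in 55.7% and 46.4% of the peaks with H3K9me3 in both conditions, and in 21.1% and 23.7% of the peaks with H3K9me3 in control only. With H3K9me3 after butyrate only, the shares were 48% and 28%. Merging the members of both lists that overlapped gave 245 loci, of which 61 had RNA pol II in both conditions, 74 in control only and 110 after butyrate only. H3K9me3 was called in both conditions at 116 loci, in control only at 67 and after butyrate only at 62. RNA pol II and H3K9me3 were both present in both conditions at 40 loci.

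Over all widths, the shares of RNA pol II peaks with H3K27ac overlapped in their intervals between peaks with and without H3K9me3. An H3K27ac peak of either condition overlapped 36.1% of the control peaks (28.4 to 44.5, background 38.6%) and 31.4% of the butyrate peaks (24.9 to 38.7, background 36.7%). Without H3K9me3 the shares were 39.3% (35.2 to 43.4) and 37.6% (34.7 to 40.5). At equal width H3K27ac was mostly less frequent with H3K9me3. In control the shares were 5.26% against 32% at 200 bp (1 of 19 and 63 of 197), 30.2% against 41.6% from 201 to 300 bp and 47.7% against 52% from 301 to 500 bp. After butyrate they were 40% against 30.6% at 200 bp (8 of 20 and 140 of 457), 19.3% (12.4 to 28.8) against 39.8% (35.7 to 44.1) from 201 to 300 bp and 42.6% against 59.3% from 301 to 500 bp. The intervals were apart in the narrowest class of control and the middle class after butyrate.

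Over all widths H3K9ac was more frequent where H3K9me3 was present. It overlapped 33.8% of the control peaks (45 of 133, 26.3 to 42.2, background 19.9%) and 31.4% of the butyrate peaks (24.9 to 38.7, background 18.3%). RNA pol II peaks without H3K9me3 had H3K9ac in 16.5% (13.6 to 19.8) and 16.2% (14.1 to 18.5), and X peaks with H3K9me3 in 21.5% and 21.7%. Within width classes this was less clear, and the peaks with H3K9me3 were the wider ones. In control the shares with and without H3K9me3 were 5.26% against 9.14% at 200 bp, the reverse order, 28.6% (18.9 to 40.7) against 20.6% (16.4 to 25.6) from 201 to 300 bp, and 45.5% (31.7 to 59.9) against 22% (12.8 to 35.2) from 301 to 500 bp. After butyrate they were 20% against 11.4%, 20.5% against 17.5%, and 46.3% (33.7 to 59.4) against 33.7% (24.6 to 44.2). The intervals overlapped in each of these classes of both lists, so the contrast over all widths moved with width. H3K27ac and H3K9ac together were found at 23.3% and 20.9% of the autosomal peaks with H3K9me3, beside backgrounds of 16.8% and 16.3%. No acetylation peak of either kind was found at 53.4% and 58.1%, against 59.4% and 61.9% of the peaks without H3K9me3.

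On the autosomes H3K9ac without H3K27ac was more frequent with H3K9me3, also within the width classes of 201 to 300 and 301 to 500 bp. It was found at 14 of the 133 control peaks (10.5%, 6.37 to 16.9) and 18 of the 172 butyrate peaks (10.5%, 6.72 to 15.9). Of the peaks without H3K9me3, 7 of 540 (1.3%) and 6 of 1070 (0.561%) had it. X peaks with H3K9me3 had it less often than the autosomal ones, with shares given in the last section. From 201 to 300 bp the shares were 11.1% (7 of 63) against 1.72% (5 of 291) in control and 6.82% (6 of 88) against 0.571% (3 of 525) after butyrate, and from 301 to 500 bp 6 of 44 against 0 of 50 and 8 of 54 against 0 of 86. Without chromosomes 6 and 14, which hold the most members, the butyrate share was 6.4%. H3K9ac and trimethylation of the same residue were thus both called under these RNA pol II peaks, each taken from either condition. They were not always called in the same condition. At chr3:17454386-17454645, for example, H3K9me3 was called in control only and H3K9ac after butyrate only. The libraries also cannot tell whether both marks were on the same allele or in the same cell.

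Acetylation was concentrated at the positions where RNA pol II recurred, and for H3K27ac this also held without H3K9me3. Of the peaks found in both conditions, 59.3% in the control list (46.6 to 70.9) and 59.7% in the butyrate list (47.3 to 71) overlapped H3K9ac, against 13.5% (7.51 to 23.1) and 15.5% (9.88 to 23.4) of the peaks found in 1 condition. For H3K27ac the shares were 55.9% and 58.1% against 20.3% and 16.4%. No acetylation peak was present at 28.8% and 25.8% of the recurring peaks and at 73% and 76.4% of the others. Where both RNA pol II and H3K9me3 were in both conditions, H3K9ac overlapped 71.8% of the 39 peaks in each list. In recurring peaks with H3K9me3 the marks thus had nearly equal shares. RNA pol II peaks that recurred without H3K9me3 had H3K27ac at 77.3% (63 to 87.2) and 78% (63.3 to 88). Their H3K9ac shares were 31.8% (20 to 46.6) and 29.3% (17.6 to 44.5). Over all autosomal RNA pol II peaks the shares were 38.6% and 36.7% for H3K27ac and 19.9% and 18.3% for H3K9ac. Peaks that recurred without H3K9me3 were thus above this level for H3K27ac, while their H3K9ac interval after butyrate held it. Recurring peaks with H3K9me3 were also the wide ones, with medians of 308 and 322 bp against 248 and 246 bp for those found in 1 condition. Width thus moves with each of these shares.

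Over the 245 loci, 154 had no peak in any of the 4 acetylation lists and 16 had one in all 4. Of the 61 loci with RNA pol II in both conditions, 16 had no acetylation peak, 13 had one in 1 list, 9 in 2, 11 in 3 and 12 in all 4. Of the 74 loci with RNA pol II in control only, 54 had no acetylation peak and 2 had one in all 4 lists. Of the 110 loci with RNA pol II after butyrate only, 84 had none and 2 had all 4. Recurring loci were therefore spread over the whole range, while loci of 1 condition were mostly without acetylation. Lack of acetylation was also common without H3K9me3. Of the 1566 autosomal RNA pol II loci without H3K9me3, 986 had no H3K27ac peak and 1317 no H3K9ac peak. Of the 245 loci, 177 and 182 had none.

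**Figure D3:**
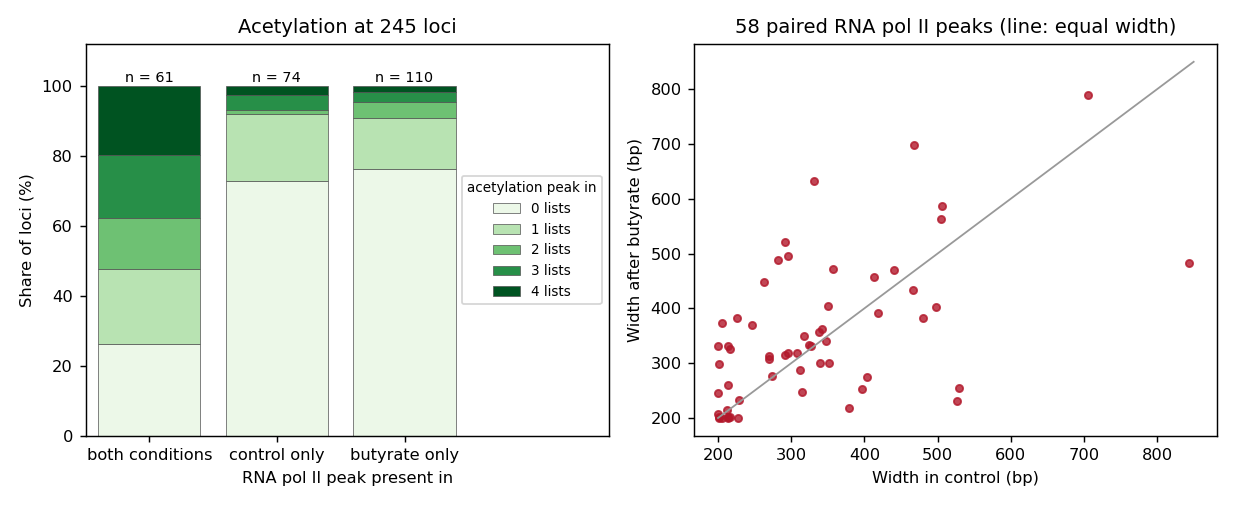
Left, share of loci (y axis, percent) with an acetylation peak in 0 to 4 of the 4 acetylation lists, for loci with RNA pol II in both conditions (n = 61), in control only (n = 74) or after butyrate only (n = 110); 12 of the 61 recurring loci are in all 4 lists, against 2 in each of the other classes. Right, width of the 58 RNA pol II peaks that match 1 to 1 between conditions, control on the x axis and butyrate on the y axis (bp), with the line of equal width; 36 lie above the line and 22 below.

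The marks moved in opposite directions between conditions at these loci. H3K27ac peaks were present at 61 loci in control and at 41 after butyrate, a log2 ratio of -0.57, whereas H3K9ac peaks were present at 35 and 51, a log2 ratio of 0.54. H3K27ac was called in both conditions at 34 loci, in control only at 27 and after butyrate only at 7. H3K9ac was called in both at 23, in control only at 12 and after butyrate only at 28. At the 1566 autosomal RNA pol II loci without H3K9me3 the corresponding numbers were 517 and 528 for H3K27ac, a log2 ratio of 0.03, and 175 and 158 for H3K9ac, a log2 ratio of -0.15. The whole autosomal lists moved in the same directions as the loci with H3K9me3, but by a smaller proportion. H3K27ac peaks numbered 36963 in control and 32763 after butyrate, and H3K9ac peaks 4075 and 4255. No interval was computed for the locus ratios, and they were not recomputed under the alternative settings. Neighbouring loci can also share a peak, as chr14:15091438-15091695 and chr14:15091786-15092370 did for H3K9ac after butyrate. Seen from the RNA pol II lists, control peaks with H3K9me3 overlapped control H3K27ac in 33.8% (background 35.2%) and butyrate H3K27ac in 24.1% (background 33.4%), and control H3K9ac in 19.5% (background 13.4%) and butyrate H3K9ac in 29.3% (background 14.3%). Butyrate peaks gave 28.5% and 20.3% for H3K27ac (backgrounds 32.8% and 32.1%) and 18.6% and 24.4% for H3K9ac (backgrounds 12.5% and 12.1%). Both lists thus showed the same directions, although they share the acetylation libraries and many positions and are not independent, and the lanes of these libraries differ with the condition.

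The H3K27ac peaks at these positions were narrower than those at other RNA pol II peaks and close in width to H3K27ac peaks in general. Control H3K27ac peaks under RNA pol II with H3K9me3 had a median width of 272 bp (n = 60), and 15% were wider than 500 bp (8.1 to 26.1). Under RNA pol II without H3K9me3 the median was 452 bp (n = 524) with 44.7% wider than 500 bp (40.5 to 48.9), and over all autosomal control H3K27ac peaks it was 294 bp with 17.3% wider than 500 bp. After butyrate the medians were 305 bp (n = 41), 482 bp (n = 534) and 302 bp over all. An H3K27ac peak was found again after butyrate for 55% of the control peaks under RNA pol II with H3K9me3 (42.5 to 66.9), for 91.2% of those under other RNA pol II peaks (88.5 to 93.4), and for 60.1% of all. In the other direction, 80.5% of the butyrate H3K27ac peaks under RNA pol II with H3K9me3 were found in control (66 to 89.8), an interval that overlapped that of the other RNA pol II peaks, 89.7% (86.8 to 92), beside 68.2% of all. It was thus the H3K27ac peaks under RNA pol II without H3K9me3 that lay farthest from the H3K27ac lists as a whole. H3K9ac peaks did not show this contrast in width, with medians of 275 and 260 bp at the regions with H3K9me3 and 274 and 280 bp at those without.

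Seen from H3K9me3, the positions with RNA pol II held most of the acetylation. Of the 1536 control and 1710 butyrate H3K9me3 peaks on chromosomes 1 to 29, 185 (12%) and 175 (10.2%) overlapped RNA pol II of either condition. H3K9ac overlapped 28.6% of these 185 (22.6 to 35.5, background 3.97%) and 27.4% of these 175 (21.4 to 34.5, background 3.63%), but 0.592% of the control H3K9me3 peaks without RNA pol II (8 of 1351) and 0.912% of the butyrate ones (14 of 1535). For H3K27ac the shares were 28.6% against 1.85% in control (background 5.08%) and 29.1% against 1.89% after butyrate (background 4.68%). Within the H3K9me3 peaks of 301 to 500 bp, H3K9ac overlapped 38.2% against 1.48% in control and 32.4% against 1.03% after butyrate. Conversely, of the autosomal H3K9me3 peaks that carried H3K9ac, 86.9% in control (53 of 61) and 77.4% after butyrate (48 of 62) also had RNA pol II. The H3K9me3 peaks with RNA pol II were found in the other condition in 62.2% and 64%, against 17.8% and 15.4% of those without (backgrounds 23.2% and 20.4%). They were also wider, with medians of 298 and 294 bp against 223 and 228 bp, and recurrence rose with width. From 301 to 500 bp the shares were 69.7% against 31.5% in control and 70.6% against 27.1% after butyrate. Above 500 bp they were 92.9% against 55.6% and 94.1% against 64.9%.

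At the 58 positions with 1 RNA pol II peak in each condition, the width changed little on the whole. The peak was wider after butyrate at 36 and narrower at 22, and the log2 width ratio had a median of 0.07 and quartiles of -0.10 and 0.29. The start was the same base at 12 positions and the end at 10.

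The 5 widest peaks with RNA pol II and H3K9me3 in both conditions all had both acetylation marks. They do not stand for all recurring loci, since 16 of the 61 had no acetylation peak. At chr6:6008455-6009297 RNA pol II was 843 bp wide in control and 482 bp after butyrate, on H3K9me3 of 445 and 442 bp, with H3K9ac of 382 and 450 bp and H3K27ac of 291 bp in control only. At chr17:34219218-34220006 all 8 lists had a peak, with RNA pol II of 706 and 789 bp, H3K27ac of 570 and 259 bp and H3K9ac of 470 and 329 bp. H3K9me3 there was split into 2 control peaks of 371 and 441 bp, 812 bp in sum, and was 1 peak of 791 bp after butyrate. The acetylation peaks were narrower after butyrate and the RNA pol II peak was wider. At chr1:91215670-91216414 RNA pol II was 468 and 698 bp wide and H3K9me3 661 and 887 bp, with H3K27ac of 200 and 227 bp, and H3K9ac of 358 bp was called after butyrate only. At chr9:88636105-88636633 RNA pol II measured 529 and 255 bp and H3K27ac 535 and 300 bp, H3K9me3 formed 2 control peaks of 337 and 222 bp and a butyrate peak of 469 bp, and H3K9ac of 626 bp was called in control only. At chr16:53208930-53209549 RNA pol II measured 292 and 522 bp and H3K9me3 536 and 397 bp, with H3K9ac of 344 and 349 bp and H3K27ac of 355 bp in control only. Among these 5 the acetylation peak missing from 1 condition was not always of the same mark or condition. Another wide peak with both acetylation marks, chr14:20721929-20722514, had RNA pol II of 506 and 586 bp and H3K27ac of 206 and 305 bp, but H3K9me3 of 346 bp and H3K9ac of 267 bp in control only.

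Counting over the loci, 9 had a peak in all 8 lists, 13 in 7, 12 in 6, 21 in 5, 25 in 4, 85 in 3 and 80 in 2. The 9 loci in all lists lay on chromosomes 3, 6 (2 loci), 11, 12, 14, 17, 18 and 29. At the 8-list locus chr6:5786995-5787208 the 8 peaks were between 206 and 252 bp wide, and both RNA pol II peaks began at the same base. At chr3:17429451-17429939 H3K9me3 was 722 bp wide in control and 257 bp after butyrate, while RNA pol II went from 282 to 489 bp and H3K27ac from 350 to 587 bp.

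Peaks found in 1 condition could also be wide. In control the widest were chr14:72581579-72582264 (686 bp), chr27:24009593-24010042 (450 bp) and chr14:782464-782908 (445 bp), and their nearest butyrate RNA pol II peaks were 257, 395 and 773 bp away. The gap was smaller than the control peak itself for the first and second, and larger for the third. Butyrate peaks were thus called close by, but peak lists do not show whether signal at the same place was present in both conditions. The first of them overlapped H3K9me3 of 375 and 359 bp, H3K27ac of 597 bp in control and in 2 peaks of 768 and 280 bp after butyrate, and H3K9ac of 587 bp after butyrate only. After butyrate the widest were chr14:14583023-14583726 (704 bp), chr14:15118624-15119241 (618 bp) and chr6:5797741-5798287 (547 bp), with the nearest control RNA pol II peaks 56662, 26253 and 10534 bp away. At chr14:14583023-14583726 H3K27ac of 554 bp was also called after butyrate only, and at chr14:15118624-15119241 H3K9me3 was 212 bp wide in control and 734 bp after butyrate with no acetylation peak.

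The regions lay in groups more often than other RNA pol II peaks, in control largely on 2 chromosomes. In control 47 of the 133 had another within 100 kb (35.3%, 27.7 to 43.8), against 17.6% (14.6 to 21) of the peaks without H3K9me3 measured among themselves. After butyrate 80 of the 172 did (46.5%, 39.2 to 54), against 23.1% (20.7 to 25.7). Over all autosomal RNA pol II peaks the backgrounds were 23.6% and 29.4%. Within 10 kb the shares were 16.5% against 6.67% in control and 23.8% against 7.1% after butyrate. Within 1 Mb the order turned, with 48.1% against 51.5% and 56.4% against 72.1%, the peaks without H3K9me3 being the more numerous. Without chromosomes 6 and 14 the share within 100 kb was 20% in control (13.2 to 29.1), near the 17% of the other peaks, and 32.8% after butyrate (25.2 to 41.4) against 22.2%. The control grouping therefore rested on these 2 chromosomes, while 41 of the 80 grouped butyrate regions lay on others. The share of H3K9me3 peaks with a neighbour within 100 kb is not given here. How far the grouping follows the layout of this mark, which chose the regions, was not tested.

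Each of the 29 autosomes held at least 1 region in both lists. Chromosome 6 held 24 in each list, 51.1% of its 47 control and 41.4% of its 58 butyrate RNA pol II peaks. Chromosome 14 held 14 of 37 (37.8%) in control and 23 of 68 (33.8%) after butyrate. Together these chromosomes carried 28.6% of the control regions (21.6 to 36.8) and 27.3% of the butyrate regions (21.2 to 34.4), but 8.52% and 7.38% of the RNA pol II peaks without H3K9me3 and 12.8% and 12.5% of the autosomal H3K9me3 peaks. Chromosome 18, with 1.7 and 1.82 H3K9me3 peaks per Mb, held 6 and 9 regions. Chromosome 5 had the most control RNA pol II peaks of all autosomes, 51, and 2 of them had H3K9me3. The first Mb of a chromosome held 8.27% and 9.88% of the regions, against 2.22% and 0.841% of the peaks without H3K9me3 (backgrounds 3.42% and 2.09%). Of these 11 control and 17 butyrate regions, 5 and 10 were on chromosome 14, and without it the shares were 5.04% (2.33 to 10.6) against 1.93% (1.05 to 3.52) in control and 4.7% (2.29 to 9.38) against 0.488% (0.209 to 1.14) after butyrate. Of all autosomal H3K9me3 peaks, the mark used to choose the regions, 4.17% in control and 6.61% after butyrate lay in the first Mb.

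**Figure D4:**
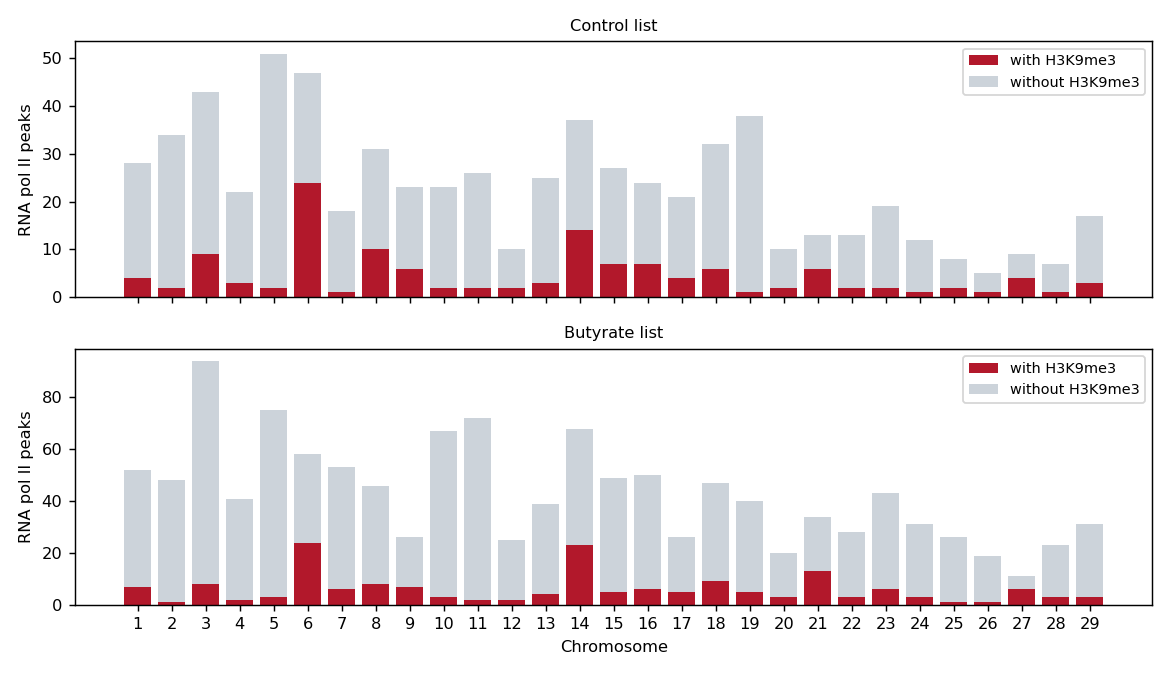
Number of RNA pol II peaks (y axis) on each of chromosomes 1 to 29 (x axis) in the control list (top) and the butyrate list (bottom), with H3K9me3 (dark red) and without (grey), stacked. Chromosome 6 holds 24 peaks with H3K9me3 in each list and chromosome 14 holds 14 and 23.

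When regions at most 100 kb apart were chained, the control list gave 99 groups, of which 86 were single peaks and the largest held 14. The butyrate list gave 118 groups, with 92 single peaks and at most 9 in a group. The largest control group, chr6:6008455-6326752, spanned 318 kb and held 14 control and 11 butyrate regions, 33 and 22 H3K9me3 peaks, 5 and 3 H3K27ac peaks, and 6 H3K9ac peaks in each condition. The other leading control groups were chr16:7198099-7489688, with 5 control and 3 butyrate regions over 292 kb, and chr3:17429600-17561075, with 4 in each list over 131 kb. The largest butyrate group, chr14:714064-906660, spanned 193 kb and held 9 butyrate regions and 3 control regions on 12 and 13 H3K9me3 peaks. The groups next in size after butyrate were chr6:6267158-6326573, with 6 butyrate and 5 control regions, and chr6:5759415-5802971, with 5 and 2.

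Stretches of 1 Mb on chromosomes 6 and 14, chosen after their values were seen, show how the groups differ. The stretch chr6:5700001-6700000 held 19 of its 31 control and 17 of its 23 butyrate RNA pol II peaks on H3K9me3, at 27 loci, of which 9 had RNA pol II in both conditions and 12 had an acetylation peak. H3K9me3 peaks there numbered 58 in control and 37 after butyrate. The start of chromosome 14, chr14:1-1000000, held 5 control and 10 butyrate regions at 13 loci, with 21 and 36 H3K9me3 peaks, and 2 loci had RNA pol II in both conditions. The stretch chr14:14500001-15500000 held 4 control and 11 butyrate regions at 13 loci, with 15 and 39 H3K9me3 peaks, and RNA pol II peaks numbered 5 in control and 20 after butyrate. In the stretch of chromosome 6 both RNA pol II and H3K9me3 were thus less numerous after butyrate, although the whole chromosome had 47 RNA pol II peaks in control and 58 after butyrate, and in both stretches of chromosome 14 both were more numerous. As H3K9me3 was used to choose the regions, this parallel is a description of the lists.

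**Figure D5:**
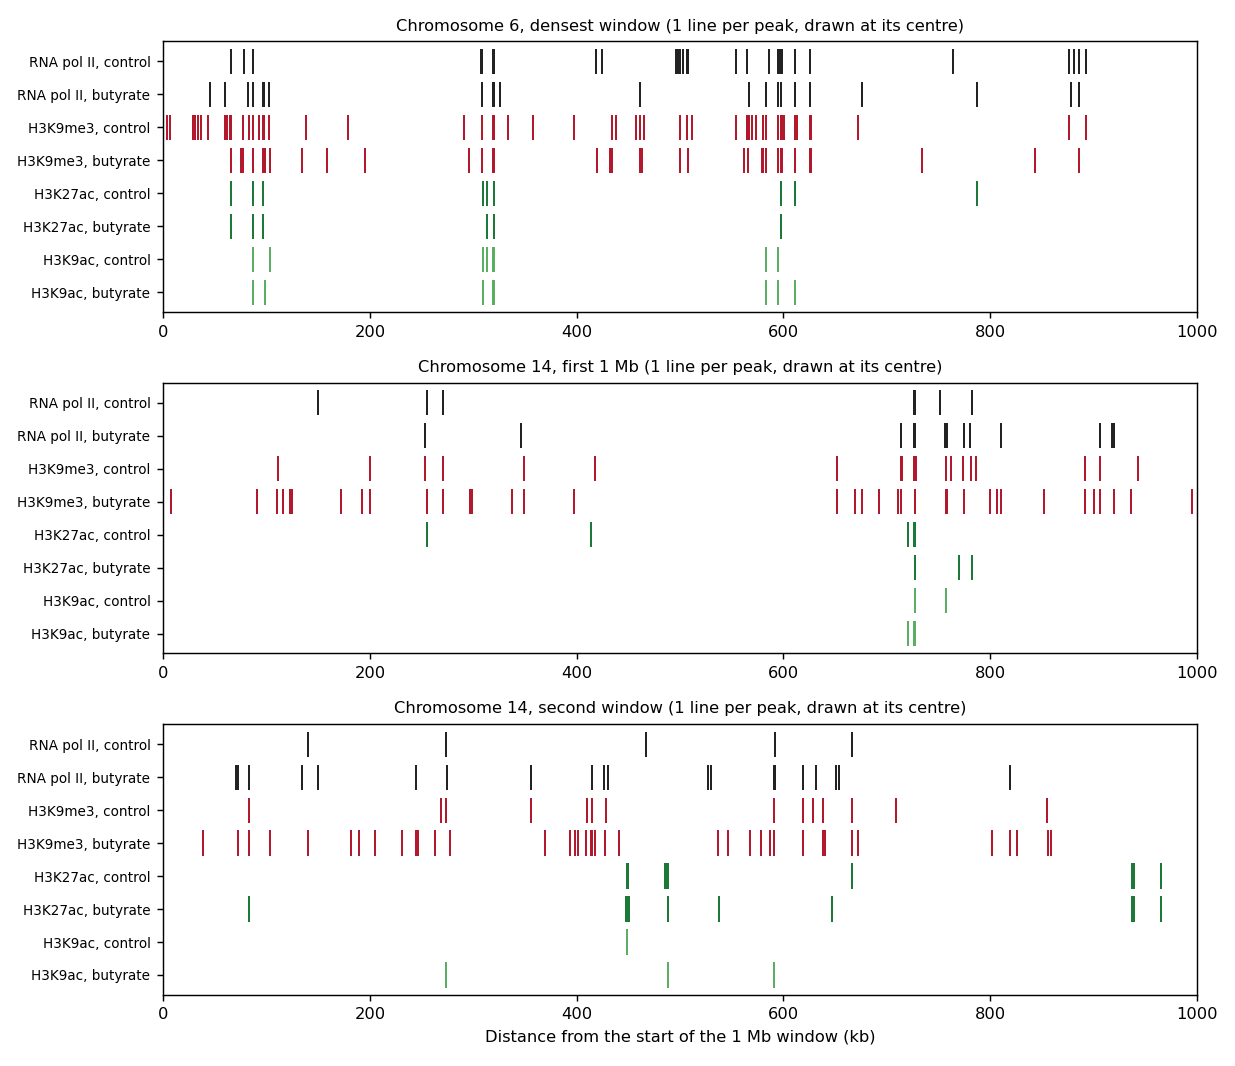
Position of each peak (x axis, kb from the start of a 1 Mb stretch, 1 line per peak at its centre) in the 8 lists (y axis), for the densest stretch of chromosome 6 (top), the first 1 Mb of chromosome 14 (middle) and a second stretch of chromosome 14 (bottom). RNA pol II (black) and H3K9me3 (red) lines fall together in short groups, and acetylation (green) meets some of them, at 12 of 27 loci on chromosome 6, and at 5 of 13 and 4 of 13 on chromosome 14.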

How the data were processed

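Peak lists were analysed for 8 of 9 libraries. The input library's own file was not analysed here. Per the labels and the methods of the study, reads of 75 nt were trimmed (Trim Galore 0.4.1), aligned with BWA to the bovine assembly (UMD3.1 in the processing notes, UMD3.1.1 in the methods), kept where unique with fewer than 2 mismatches, and peaks were called with MACS2 against the input. The series text gives single-end reads and the methods paired-end reads. The deposited values are positions only, with 3 columns per list and no score, count or signal. Replicates were not pooled, since each group had 1 library.

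Positions were read as 1-based with both ends included. Overlaps of at least 1 bp, widths, gaps and groups chained at 100 kb were computed with Python 3.11.15, numpy 2.4.6 and pandas 2.3.3, shares as overlapping peaks over all peaks of a list with Wilson intervals from scipy 1.17.1, and figures with matplotlib 3.10.9. The overlap code was tested on simulated peaks. No test was run. Named peaks were the 5 widest found in both conditions for RNA pol II and H3K9me3, the 3 widest of each list found in 1 condition, up to 3 groups per list with the most members, up to 5 of the widest with both acetylation marks, and those at the edge of the rule. Loci in all 8 lists and the 1 Mb stretches were named after their values were seen. The members, the lists and these rules were chosen with earlier results of these data known. Alternatives were a minimum overlap of 50% of the shorter peak, peaks at or above the median width, H3K9me3 of the same condition, merging within 1 kb, starts counted from 0, leaving out chromosomes 6 and 14 or chromosome 14, and 1 region per group. No genome or annotation of this build was used here, so gene positions and sequences were not analysed.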

Additional observations from a re-analysis of the deposited data

Results flagged for a closer look

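The acetylation marks differed in direction between conditions at the 245 loci where RNA pol II met H3K9me3. H3K27ac peaks were present at 61 loci in control and 41 after butyrate, a log2 ratio of butyrate to control of -0.57. H3K9ac peaks were present at 35 and 51, a log2 ratio of 0.54. At the 1566 autosomal RNA pol II loci without H3K9me3 the ratios were 0.03 and -0.15. Over the whole autosomal lists H3K27ac peaks numbered 36963 and 32763, and H3K9ac peaks 4075 and 4255. These are the same directions as at the 245 loci, but smaller in proportion. No interval was computed for these ratios. The difference between the antibodies was not tested, since each antibody had 1 library per condition. For both marks the control library was on lane 1 and the butyrate library on lane 3, so lane and condition cannot be told apart.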

How the results depend on the processing

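Of 175 alternative values for 27 results, 154 stayed within the interval of the reported value and 21 moved outside it. A change of direction was defined only for the log2 ratio in number, which kept its sign in all 7 alternatives. Requiring 50% of the shorter peak, counting starts from 0, and keeping 1 region per 100 kb group moved none. Keeping peaks no narrower than their list's median, the share of RNA pol II peaks with H3K9me3 was 25.5% in control and 17.9% after butyrate, H3K27ac overlap 28.4% and 21.6%, H3K9ac without H3K27ac 17.6% after butyrate, grouping within 100 kb 35.3% after butyrate, that of the other RNA pol II peaks 13.5% and 11.3%, and the median width 315 and 314 bp by construction. With H3K9me3 of the same condition only, the share with H3K9me3 was 16% and 10.8%. Merging peaks within 1 kb gave 14.6% for grouping of the other control peaks. Leaving out chromosomes 6 and 14 gave shares with H3K9me3 of 16.1% and 11.2%, grouping of 20% and 32.8%, and 6.4% for H3K9ac without H3K27ac after butyrate. The share of butyrate regions in the first Mb was 5.88% for wider peaks, 5.6% without chromosomes 6 and 14, and 4.7% without chromosome 14. The log2 ratio in number had an interval holding 0 in 4 of 7 alternatives, at 0.29 for 50% overlap, 0.33 for wider peaks, 0.31 for H3K9me3 of the same condition and 0.25 for 1 region per group. Leaving out chromosomes and keeping 1 region per group were chosen after seeing the data. Other causes of these moves were not tested. Recurrence stayed higher with H3K9me3 than without in 7 of 7 settings in each list. No paired analysis was possible because there was 1 library for every group. The lists give no depth, so a peak missing from a list cannot be told apart from one below the caller's threshold.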

Other observations

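On the X chromosome, RNA pol II peaks with H3K9me3 resembled the autosomal ones in median width, 267 bp against 269 bp in control. They were packed more closely, with another such peak within 100 kb for 80.2% in control and 77.6% after butyrate. H3K9ac without H3K27ac was found at 1.65% of them in control and 5.59% after butyrate, against 10.5% in both autosomal lists.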
